A study of Homo sapiens with 12 samples.

Results

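The genes described are 9 direct targets of the transcription factor p53, namely MDM2, PPM1D, CDKN1A, ZMAT3, SESN1, SESN2, GDF15, FAS and TP53INP1. They were chosen by symbol, and all 9 were found among the 58051 genes of the count tables. The gene of p53 itself was not analysed here. RNA-seq was performed in 3 established human kidney cancer lines labelled as clear cell renal cell carcinoma, 786-O, A-498 and ACHN. In 786-O, 1 library of cells given a miR-29 mimic was set against 1 library given a control mimic, and A-498 had 2 libraries of each. ACHN had 3 libraries given a miR-29 inhibitor and 3 given an inhibitor control. All 12 libraries came from cells reverse-transfected with 10 nM of RNA using Lipofectamine RNAiMAX and harvested at 48 h, and no untransfected cells were analysed here. A mimic stands in for the mature microRNA and raises its activity, and an inhibitor is an antisense RNA that blocks the microRNA of the cell. The mimic and the inhibitor were thus given to different lines.

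p53 is kept low in unstressed cells because MDM2, a ubiquitin ligase and itself a p53 target, marks it for degradation. When DNA damage or another stress releases p53, it binds the promoters of genes that stop the cell cycle, limit oxidative and metabolic stress, or promote cell death, and it raises the inhibitors MDM2 and PPM1D that switch it off again. miR-29 is a family of microRNAs that lower mRNAs carrying a match to their seed in the 3′ untranslated region (UTR), and it has been linked to p53 through PIK3R1 (p85α, a regulatory subunit of PI3 kinase) and CDC42 (a small GTPase), described as miR-29 targets that restrain p53.

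The family shares its seed (nucleotides 2 to 8), shown in capitals in the mature sequences from RefSeq (GRCh38.p14), which are given because the sites in the p53 target genes were searched with this seed.
hsa-miR-29a-3p: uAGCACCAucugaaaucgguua
hsa-miR-29b-3p: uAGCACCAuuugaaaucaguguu
hsa-miR-29c-3p: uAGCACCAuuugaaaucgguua

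Of the 9 genes, 5 held an exact match to the seed (TGGTGCT, on the transcribed strand only) in an annotated 3′ UTR (GENCODE v44), whereas 3152 of 19248 protein-coding genes (16.4%) did. Longer 3′ UTRs hold more matches, and the share was 40.1% among genes with a longest 3′ UTR within 20% of that of MDM2 (5695 nt), 24.7% for the length of PPM1D, 28.02% for SESN1, 35.2% for TP53INP1 and 65.0% for FAS. For the lengths of the members without the full match it was 46.4% (ZMAT3), 17.5% (SESN2), 16.1% (CDKN1A) and 2.4% (GDF15). The longest 3′ UTR of FAS, 15155 nt, exceeds its whole canonical transcript (3696 nt). A FAS site 766 nt after the stop codon lay in 14 isoforms, the canonical one among them. The sites of 3 genes are given in mRNA orientation, on GRCh38, with the match in capitals and 10 bases on each side, since these are among the target genes that miR-29 could bind directly by this criterion.
MDM2, 1382 nt after the stop codon, chr12:68841221-68841247, plus strand: ctcttatattTGGTGCTatgtaaatga
PPM1D, 823 nt after the stop codon, chr17:60664365-60664391, plus strand: caataacagaTGGTGCTgctaattccc
SESN1, 399 nt after the stop codon, chr6:108987129-108987155, minus strand: tagaagatctTGGTGCTgctattcctg

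The site of MDM2 is followed by an A, which makes it an 8mer, and TP53INP1 (chromosome 8, minus strand) held an 8mer 1611 nt after its stop codon. The MDM2 and PPM1D sites each lay in only 1 annotated isoform, the canonical transcript. MDM2 has 7 distinct annotated 3′ UTRs and PPM1D has 3. CDKN1A held only a 6-base match (nucleotides 2 to 7). These 6 bases were found in 33.6% of protein-coding genes, a share that includes the genes with the full match. GDF15, SESN2 and ZMAT3 held neither the full nor the 6-base match. A match is a description of the sequence and was not tested as a binding site.

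Reads in genes numbered 39919554 to 70027392 per library. The share of reads not assigned to a gene was 45.7% and 48.0% in the 786-O libraries and 37.2% to 40.6% in the other 10. Levels are given as CPM (counts scaled to 1000000 reads in genes per library), and changes as log2 fold changes after TMM scaling, called at a Benjamini-Hochberg adjusted p under 0.05 over all genes tested. As a check of the labels, 8 known miR-29 targets such as COL4A1 and SPARC summed to 4233 to 4301 CPM in A-498 controls and to 1300 to 1302 with the mimic, and to 2805 to 3069 CPM in ACHN controls and 6607 to 7354 with the inhibitor. In 786-O they summed to 2102 CPM in the control and 629 with the mimic. All 5 renal tumour markers (PAX8, PAX2, KRT8, KRT18 and VIM) exceeded 1 CPM in every group, and 7 markers of blood, endothelial, liver and muscle cells summed to at most 5.04 CPM.

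In control libraries, all 9 p53 target genes were lower in the 786-O library than in every A-498 and ACHN library, by under 2-fold (PPM1D and SESN2 against A-498) to over 10-fold. Of 16252 genes with at least 1 CPM in a control library, 37.2% were lowest in 786-O in this way, as were 40 of 50 further p53 targets described below. SUSD6 and PIDD1, chosen after their values were seen, went the other way, with 38.1 and 17.1 CPM in 786-O against means of 15.5 and 11.1 in A-498. GDF15, a secreted stress cytokine, had 1.67 CPM in the 786-O control, and its mean was 49.4 times higher in A-498 and 48.9 times higher in ACHN. TP53INP1, a nuclear protein that promotes p53 phosphorylation and autophagy, was 14.4 and 16.1 times higher. CDKN1A, the CDK inhibitor p21, was 13.9 and 13.1 times higher. MDM2 was 5.90 and 10.6 times higher, SESN1 4.80 and 5.25 times, and the other 4 between 1.76 and 4.63 times. With 1 control library of 786-O, these ratios have no replicate check for that line, and in bulk RNA fewer expressing cells and less RNA per cell cannot be told apart.

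Per length (RPKM, that is CPM per kb of exon), CDKN1A led in A-498 at 97.9 ± 4.54 (SD, n = 2), followed by MDM2 at 62.8 ± 1.17 and GDF15 at 39.5 ± 4.50. In ACHN, MDM2 at 113 ± 11.2 (SD, n = 3) stood above CDKN1A at 92.0 ± 5.72 and GDF15 at 39.2 ± 3.02. SESN2, which helps restrain mTORC1, came next, with 9.71 ± 0.215 in A-498 and 17.5 ± 1.19 in ACHN. Below it, ZMAT3 and TP53INP1 differed by less than their spread in both lines (7.55 ± 0.580 and 7.35 ± 0.274 in A-498, 8.51 ± 0.907 and 8.17 ± 0.656 in ACHN). SESN1, PPM1D and FAS were lowest, at 5.11, 4.71 and 2.62 in A-498 and at 5.59, 5.34 and 5.06 in ACHN, where each differed from the next by less than the SD of PPM1D (0.338). The place of FAS rests on the gene length used, since with the canonical transcript in place of all exons it ranked 4 in both lines, at 20.8 and 40.1. With that length CDKN1A (130) also passed MDM2 (125) in ACHN. PPM1D and TP53INP1 changed places under both other lengths in A-498 and ACHN, with PPM1D at rank 6 by the longest transcript and 7 by the canonical one, so the order of the lower genes depends on the length used. In the 786-O control the order began with MDM2 at 10.6 and CDKN1A at 7.05, and ended with GDF15 at 0.8001 and TP53INP1 at 0.509.

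**Figure D1:**
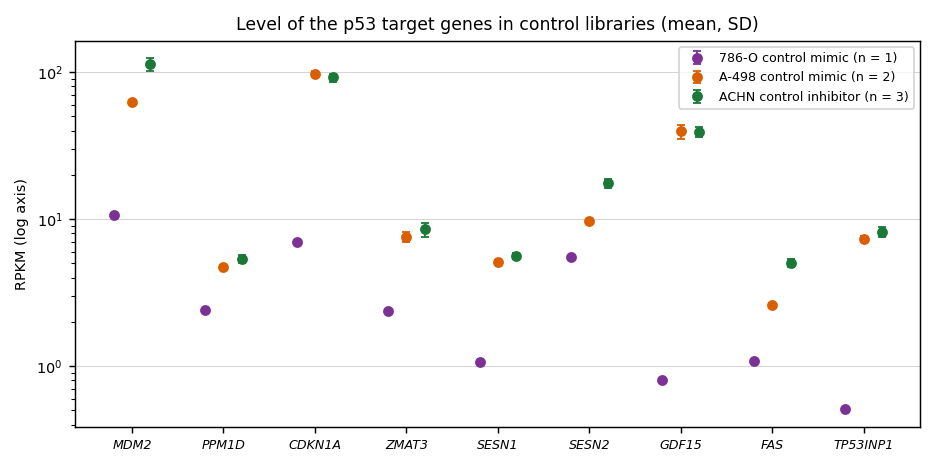
Level of the 9 p53 target genes in control libraries, in RPKM on a log axis, with the mean as a point and the SD as a bar (1 library in 786-O, 2 in A-498, 3 in ACHN). The 786-O point is the lowest for each of the 9 genes.

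Between the control libraries of A-498 and ACHN, which could be tested, 7 of the 9 genes were higher in ACHN and 0 lower, where 38.7% of all genes tested were higher and 41.0% lower. FAS, the death receptor, had 75.2 and 78.6 CPM in A-498 and 138 to 157 CPM in ACHN (log2 difference 0.95). MDM2 and SESN2 were each higher by 0.86. The other called differences (SESN1, TP53INP1, ZMAT3 and PPM1D) were 0.14 to 0.19. CDKN1A and GDF15 did not pass the test, with log2 differences of -0.08 (95% interval -0.18 to 0.01) and 0.00. None of the 9 reached 2-fold with an adjusted p under 0.05, against 16.5% of genes higher in ACHN and 21.6% lower. Without A-498 control replicate 1, only 3 of the 9 were called (MDM2, SESN2 and FAS). The cell line and the kind of control reagent cannot be told apart in this comparison.

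In A-498, the mimic was followed by a higher level of 8 of the 9 p53 target genes, and of none was the level lower. Among all 19676 genes tested, 25.5% were higher and 27.0% lower. Counted with a fold of at least 1.5, 5 of the 9 were higher (SESN2, GDF15, MDM2, FAS and TP53INP1), against 8.94% of all genes higher and 10.6% lower. The median log2 fold change of the 9 was 0.70, and that of all genes 0.00.

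In ACHN, the inhibitor, which acts on miR-29 in the opposite sense, was also followed by higher levels, in 7 of the 9 genes, with none lower. There 17.3% of 17904 genes were higher and 14.4% lower. The changes were smaller, with a median of 0.32 for the 9 and 0.00 for all genes, and 2 of the 9 passed 1.5-fold (CDKN1A and TP53INP1). The lists of genes called in both lines share no control libraries, but the line and the reagent differ together.

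In 786-O the mimic library was set against the control library without a test. Past 1.5-fold, 3 of the 9 genes were lower (PPM1D, MDM2 and CDKN1A) and 1 was higher (SESN2), where 19.0% of 20370 genes were lower and 15.7% higher. The median log2 ratio was -0.21 for the 9 and -0.01 for all genes. CDKN1A lay close to the threshold and fell short of it (-0.58) with library sizes in place of TMM. The 95% intervals given for 786-O cover counting error only.

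**Figure D2:**
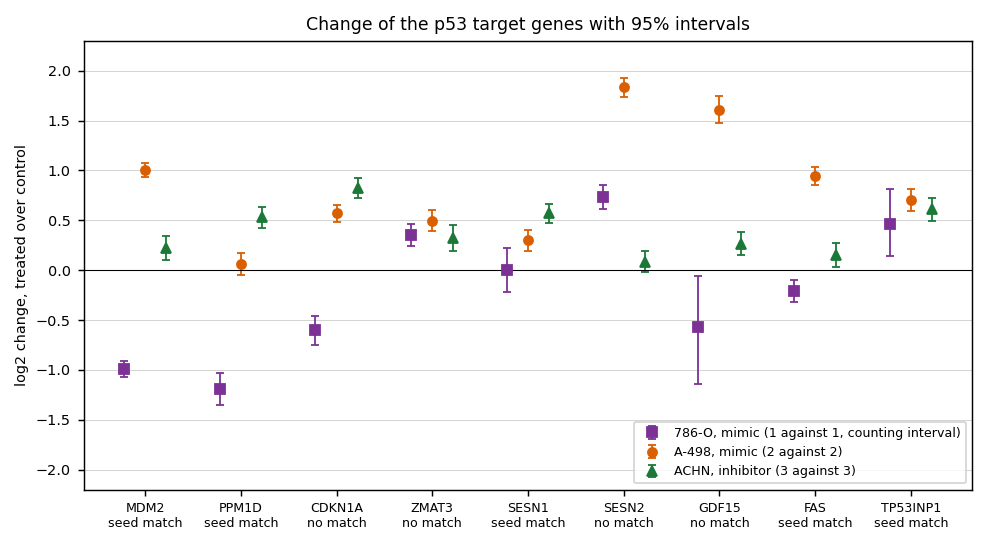
Log2 change of the 9 p53 target genes with the miR-29 mimic in 786-O (squares) and A-498 (circles) and with the inhibitor in ACHN (triangles), with 95% intervals that in 786-O cover counting error only. MDM2 lies at 1.01 in A-498 and at -0.99 in 786-O, and the ACHN points lie between 0.09 and 0.82.

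The inhibitors of p53 come first. MDM2 (chromosome 12, 68808177 to 68845544, plus strand) had 514 and 528 CPM in the A-498 controls and 1107 and 1100 CPM with the mimic. The groups lay far apart, with a log2 fold change of 1.01 (SE 0.0325; edgeR adjusted p = 9.90e-12), a 2.01-fold rise. MDM2 itself holds an 8mer for miR-29, in 1 annotated isoform. In ACHN, MDM2 had 962, 1020 and 838 CPM in controls and 1167, 1023 and 1077 with the inhibitor. The groups only just failed to overlap, and the log2 difference came to 0.22 (SE 0.0562; edgeR adjusted p = 0.00483), which DESeq2 did not call (adjusted p = 0.0792). In 786-O, MDM2 had 88.4 CPM in the control and 45.2 with the mimic, a log2 ratio of -0.99 (-1.07 to -0.91). The MDM2 locus also holds a processed pseudogene on the same strand, whose exon overlaps its exons, so a part of its reads may not have been counted.

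PPM1D (chromosome 17, 60600193 to 60666280, plus strand), the phosphatase WIP1 that dephosphorylates p53 and the kinases upstream of it, was the member with no called change in A-498. It had 43.1 and 45.6 CPM in those controls and 49.3 and 48.2 with the mimic. The libraries did not overlap, but the log2 difference of 0.06 (95% interval -0.05 to 0.17; edgeR adjusted p = 0.34) was small, and it was called with library sizes in place of TMM (0.14, adjusted p = 0.0337). In ACHN it rose from 51.7, 52.4 and 46.5 CPM to 72.5, 69.3 and 73.9 CPM, and every inhibitor library lay above every control (log2 fold change 0.53, SE 0.0499; edgeR adjusted p = 2.04e-07). In 786-O it had 22.7 CPM in the control and 10.1 with the mimic, at -1.19 (-1.36 to -1.03) the most negative log2 ratio of the 9.

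Among the genes of cell cycle arrest, CDKN1A (chromosome 6, 36676460 to 36687337, plus strand) had 303 and 284 CPM in A-498 controls and 454 and 464 with the mimic. This was a log2 fold change of 0.57 (SE 0.0392; edgeR adjusted p = 2.19e-08). In ACHN it went from 280, 291 and 257 CPM to 499, 498.2 and 456, the largest change of the 9 in that line, at 0.82 or 1.77-fold (SE 0.0469; edgeR adjusted p = 3.09e-10). In both lines the treated libraries lay well above the controls. In 786-O it had 21.1 and 14.1 CPM, control and mimic, a log2 ratio of -0.60 (-0.75 to -0.45).

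ZMAT3 (chromosome 3, 178960121 to 179072215, minus strand), a zinc finger RNA-binding protein that acts in p53-dependent growth suppression, had 80.6 and 89.9 CPM in A-498 controls and 128 and 126 with the mimic (log2 fold change 0.50, SE 0.050; edgeR adjusted p = 1.21e-06). In ACHN the controls had 101, 103 and 84.4 CPM and the inhibitor libraries 125, 113 and 120 (0.32, SE 0.0638; edgeR adjusted p = 7.24e-04). The treated groups lay above the controls in both lines. ZMAT3 was also higher in the 786-O mimic library, at 34.9 against 26.9 CPM (0.35, 0.24 to 0.46), so its point estimate was positive in all 3 lines. The same held for TP53INP1 and for SESN2, whose difference in ACHN (0.09) was not called, while SESN1 lay at 0.00 in 786-O.

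The sestrins and GDF15 respond to stress. SESN2 (chromosome 1, 28259518 to 28282491, plus strand) showed the largest change of the 9 in A-498, from 34.1 and 33.1 CPM in controls to 126 and 127 with the mimic. The rise was 3.56-fold, a log2 fold change of 1.83 (SE 0.0453; edgeR adjusted p = 6.76e-13). It was also the one member past 1.5-fold upwards in 786-O, with 19.1 CPM in the control and 32.4 with the mimic (0.73, 0.61 to 0.86). In ACHN, by contrast, the controls (59.9, 65.2 and 57.1 CPM) and the inhibitor libraries (64.5, 67.5 and 60.03 CPM) overlapped. The difference of 0.09 (95% interval -0.02 to 0.20; edgeR adjusted p = 0.23) did not pass the test.

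SESN1 (chromosome 6, 108984309 to 109094846, minus strand), its paralogue and a classical p53 target, had the reverse order of sizes. In A-498 it had 36.4 and 38.0 CPM in controls and 48.6 and 47.9 with the mimic (0.30, SE 0.0505; edgeR adjusted p = 1.78e-04). In ACHN it rose from 41.4, 42.1 and 38.6 CPM to 61.6, 58.8 and 59.4 (0.57, SE 0.0457; edgeR adjusted p = 2.76e-08). The groups did not overlap in either line. In 786-O it had 7.75 CPM in the control and 7.89 with the mimic, a log2 ratio of 0.00 (-0.22 to 0.22).

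GDF15 (chromosome 19, 18374731 to 18389176, plus strand) had 89.1 and 75.8 CPM in A-498 controls and 252 and 279 with the mimic, a 3.05-fold rise (log2 fold change 1.61, SE 0.0650; edgeR adjusted p = 9.35e-11). In ACHN it had 82.2, 87.8 and 75.2 CPM in controls and 98.9, 103 and 91.3 with the inhibitor, a far smaller change (0.27, SE 0.0563; edgeR adjusted p = 0.00123) with groups that just did not overlap. In 786-O it had 1.67 and 1.13 CPM, control and mimic, from 75 counts in the control, and the log2 ratio of -0.57 has a wide interval (-1.14 to -0.06).

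SESN2 and GDF15 can also be raised by ATF4, the transcription factor of the integrated stress response, so ATF4 and 6 of its targets were read beside them. In A-498, 5 of these 7 genes were higher and 2 lower, beside 25.5% of all genes higher and 27.0% lower. CHAC1, a glutathione-degrading enzyme, rose by 2.16 on the log2 scale and DDIT3 (CHOP) by 1.10, while TRIB3, a pseudokinase that itself holds a miR-29 seed match, fell by 1.54 (edgeR adjusted p at most 2.59e-09 for the 3). The median log2 fold change of the 7 was 0.88. Their summed level was 1170 to 1230 CPM in A-498 controls and 1238 to 1242 with the mimic, a sum dominated by the cystine transporter SLC7A11, which had a mean of 592 CPM in controls and 366 with the mimic. In ACHN, 2 were higher (TRIB3 0.43 and SLC7A11 0.28) and 1 lower (PSAT1 -0.20), beside 17.3% and 14.4% of all genes. The sums overlapped, at 874 to 938 CPM in controls and 916 to 969 with the inhibitor. In 786-O the sums were 382 and 358 CPM. In the interaction described below, 5 of the 7 were more negative in 786-O and 0 more positive, beside 13.2% and 16.5% of all genes. The part of ATF4 in the SESN2 and GDF15 values was not tested.

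Of the genes tied to cell death, FAS (chromosome 10, 88953813 to 89029605, plus strand) had 75.2 and 78.6 CPM in A-498 controls and 158 and 155 with the mimic. This corresponded to 0.95 on the log2 scale (SE 0.0420; edgeR adjusted p = 2.36e-10). In ACHN the controls (157, 150 and 138 CPM) and the inhibitor libraries (174, 149 and 167 CPM) overlapped, and the difference of 0.15 (95% interval 0.03 to 0.27; edgeR adjusted p = 0.0573) just missed the threshold. It was called without inhibitor replicate 2 (0.21, adjusted p = 0.00151) and without control replicate 1 (0.19, adjusted p = 0.0234). In 786-O it had 32.0 and 28.1 CPM, control and mimic (-0.21, -0.32 to -0.10). Exons of FAS overlap those of STAMBPL1 on the same strand in GENCODE v44, so some of its reads may be uncounted or shared.

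TP53INP1 (chromosome 8, 94925972 to 94949378, minus strand) was called higher in both replicated lines. It had 40.4 and 42.6 CPM in A-498 controls and 72.9 and 69.7 with the mimic (0.70, SE 0.050; edgeR adjusted p = 3.15e-08). In ACHN it had 48.4, 48.1 and 41.8 CPM in controls and 73.4, 66.1 and 70.0 with the inhibitor (0.61, SE 0.0555; edgeR adjusted p = 1.31e-07). All treated libraries lay above all controls of their line. In 786-O it had 2.87 and 4.06 CPM, control and mimic, a log2 ratio of 0.47 (0.14 to 0.81).

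**Figure D3:**
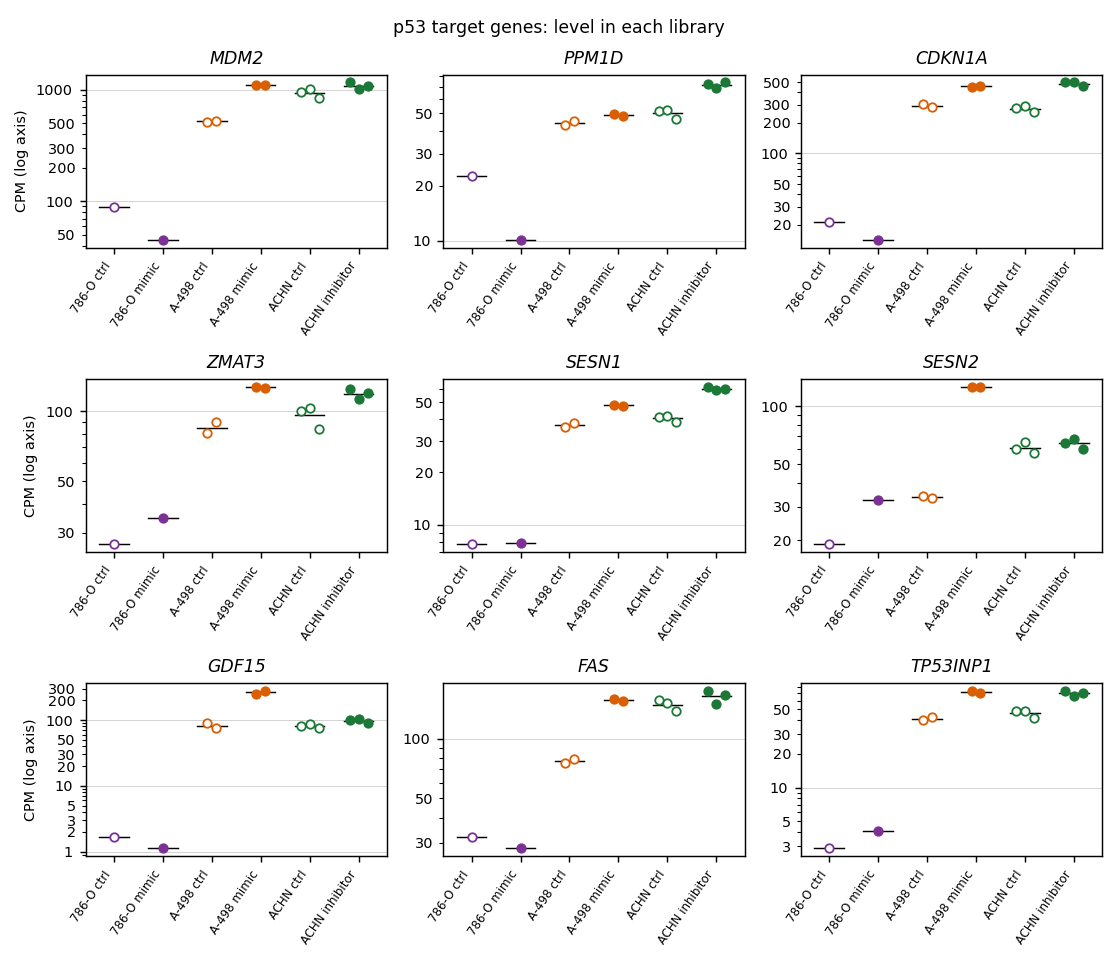
Level of each p53 target gene in each library, in CPM on a log axis, with open points for controls, filled points for the mimic or inhibitor and a line at the group mean. The 786-O libraries lie lowest for each gene. In A-498, 8 of the 9 genes were called higher with the mimic, beside 25.5% of all genes tested, and PPM1D (0.06) was not called.

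The 5 genes with a seed match did not stand apart from the 4 without one by direction in any line. With the mimic, the log2 changes in A-498 ran from 0.06 (PPM1D) to 1.01 (MDM2) with a match and from 0.50 (ZMAT3) to 1.83 (SESN2) without. In 786-O they ran from -1.19 (PPM1D) to 0.47 (TP53INP1) with a match and from -0.60 (CDKN1A) to 0.73 (SESN2) without. With the inhibitor in ACHN they ran from 0.15 (FAS) to 0.61 (TP53INP1) with a match and from 0.09 (SESN2) to 0.82 (CDKN1A) without. These ranges overlap in each line and were not tested against each other.

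The mimic effects in 786-O and A-498 were also set against each other, as an interaction over the 6 libraries. Since 786-O had 1 library in each group, the spread came from A-498 alone and the 786-O libraries are assumed to vary like them, so the p-values compare these libraries and do not establish a difference between the lines. The effect in the 786-O pair was more negative past the threshold for 6 of the 9 genes and more positive for 0, against 13.2% and 16.5% of all 22587 genes tested. GDF15 differed by -2.16 on the log2 scale (edgeR adjusted p = 3.73e-05) and MDM2 by -1.95 (edgeR adjusted p = 3.90e-14). PPM1D, CDKN1A, FAS and SESN2 differed by -1.21, -1.13, -1.11 and -1.06 (edgeR adjusted p from 7.61e-09 to 7.52e-08). For SESN2 both effects were positive and that of 786-O smaller, and for PPM1D the effect was negative in 786-O and not called in A-498. SESN1 (-0.25, adjusted p = 0.167), TP53INP1 (-0.19, 0.479) and ZMAT3 (-0.10, 0.518) did not pass, although SESN1 and ZMAT3 did without A-498 control replicate 3. The larger share of unassigned reads in the 786-O libraries goes with the line, and its part in these differences cannot be told apart from that of the line.

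A further 50 p53 targets were read in the same way, in 3 groups. In A-498 with the mimic, 39 of the 50 were higher and 5 lower, with a median log2 fold change of 0.56. These counts and those of the groups stand beside 25.5% of all genes higher and 27.0% lower. Of 14 genes of arrest and repair, 10 were higher and 1 lower, led by GADD45A, a growth arrest and DNA damage protein (1.74), PLK3, a stress-responsive kinase (1.10), and RRM2B, a ribonucleotide reductase subunit (1.08). Of 17 cell death genes, 14 were higher and 2 lower, led by PMAIP1, the BH3-only protein NOXA (1.62), CYFIP2 (1.32) and AEN, an exonuclease (1.00). AEN holds a seed match. Of 19 genes of metabolism, autophagy and signalling, 15 were higher and 2 lower, led by ABCA12, a lipid transporter (1.66), ACER2, an alkaline ceramidase (1.18), and FDXR, ferredoxin reductase (1.03). All 9 named genes passed the edgeR test (adjusted p at most 3.77e-08). The members that were lower include TRIAP1, an inhibitor of apoptosis, at -0.70, and CCNG2, an atypical cyclin that restrains the cycle, at -1.07, both chosen after their values were seen in this line.

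In ACHN with the inhibitor, 27 of the 50 were higher and 3 lower, with a median of 0.16. Among all genes tested there, 17.3% were higher and 14.4% lower. By group, 8 of the 14 arrest and repair genes were higher and 1 lower, 12 of the 17 cell death genes were higher and 1 lower, and 7 of the 19 others were higher and 1 lower. The leading genes were BTG2, an antiproliferative factor (0.97), CCNG2 (0.79) and POLH, a translesion polymerase (0.35) in the first group. TP53I3, a quinone oxidoreductase (0.71), TRIAP1 (0.62) and BBC3, the BH3-only protein PUMA (0.57) led the second, and DRAM1, an autophagy modulator (0.66), ACER2 (0.64) and ANKRA2 (0.48) the third. All 9 passed the edgeR test (adjusted p at most 6.31e-05). The leading genes of A-498 were mostly weak here, with GADD45A at 0.13 (not called), RRM2B at 0.15 (not called) and PMAIP1 lower at -0.17.

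In 786-O with the mimic, 48 of the 50 had at least 10 counts in the pair, and 13 were lower and 2 higher past 1.5-fold (19.0% and 15.7% of all genes), with a median log2 ratio of -0.20. BTG2 holds a seed match, and in A-498 its mean rose from 57.1 CPM in controls to 121 with the mimic. In 786-O BTG2 had a ratio of -2.02, TP53I3 of -1.94, TRIAP1 of -1.80, CCNG2 of -1.69 and ACER2 of -1.64, all named after their values were seen. The 2 that were higher in 786-O were CMBL, with 11.3 CPM in the control and 37.6 with the mimic, and CYFIP2, with 14.7 and 28.5 CPM. GADD45A and PMAIP1, which rose over 3-fold in A-498, were near 0 here (-0.06 and 0.00). In the interaction, again with the spread of A-498 alone, 35 of the 50 were more negative in 786-O past the threshold (13.2% of all genes) and 1 (16.5% of all genes), the hydrolase CMBL, more positive (1.09, edgeR adjusted p = 1.17e-08). Within each group, the 3 most negative were BTG2 (-2.99), GADD45A (-1.76) and PLK3 (-1.18) for arrest and repair, TP53I3 (-2.47), EDA2R (-1.70) and BBC3 (-1.61) for cell death, and ACER2 (-2.79), ABCA12 (-2.61) and TIGAR (-1.29) for the rest, among genes past the threshold with an average log2 CPM of 1 or more.

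**Figure D4:**
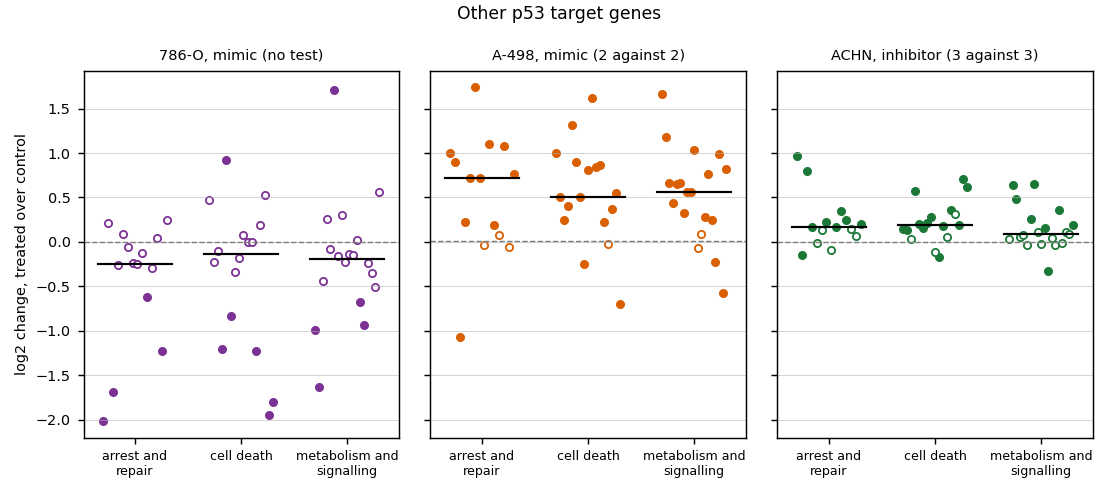
Log2 change of 50 further p53 targets in 3 groups, for the mimic in 786-O (48 genes) and A-498 and the inhibitor in ACHN, with filled points for genes called (in 786-O, past 1.5-fold with no test), a solid line at each group's median and a dashed line at the median of all genes. The medians of the 3 groups lie above that of all genes in A-498 (0.72, 0.50 and 0.57) and ACHN (0.17, 0.19 and 0.08) and below it in 786-O (-0.24, -0.14 and -0.20).

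At baseline, 28 of the 50 were higher in ACHN than in A-498 and 17 lower, where 38.7% and 41.0% of all genes were, with large differences in single genes. SFN, the checkpoint protein 14-3-3σ, was lower in ACHN by 4.37 on the log2 scale, and PLTP, a phospholipid transfer protein, higher by 7.66 (edgeR adjusted p = 1.20e-20 and 1.06e-22). PLTP was close to absent in A-498 controls, with a mean of 0.50 CPM against 103 CPM in ACHN controls.

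The regulators of p53 were called in both directions. Of 21 listed, 19 were tested in A-498, with 7 higher and 5 lower (median 0.02), and 20 in ACHN, with 3 higher and 4 lower (median -0.04). These counts stand beside 25.5% and 27.0% of all genes higher and lower in A-498, and 17.3% and 14.4% in ACHN. CDC42, which held 6 seed matches over its isoforms, was lower with the mimic in A-498 (-0.98, edgeR adjusted p = 1.45e-10) and in 786-O (log2 ratio -1.09), and higher with the inhibitor in ACHN (0.19, edgeR adjusted p = 0.00156). PIK3R1, with 2 matches, rose in A-498 given the mimic (0.41, edgeR adjusted p = 2.00e-05), at 0.17 in 786-O, and did not pass the test in ACHN (0.07, adjusted p = 0.366). MDM4, the partner of MDM2 that also restrains p53, held no match and was higher in A-498 (0.30, edgeR adjusted p = 2.08e-04), lower in ACHN (-0.24, adjusted p = 4.65e-04) and at 0.33 in 786-O. RCHY1, a p53 ubiquitin ligase, was higher in A-498 (0.66) and COP1, another such ligase, lower (-0.56), while HIPK2, a kinase that phosphorylates p53, and the checkpoint kinase CHEK1 were lower in ACHN (-0.46 and -0.26). All 4 passed the edgeR test (adjusted p at most 1.15e-04).

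Across the 12 libraries, log2 CPM of MDM2 was most like that of TMEM154 (Pearson r = 0.997), ACADVL (0.994) and S100A11 (0.993), out of 9921 genes whose log2 CPM averaged 3 or more. The genes most like CDKN1A were CDC42SE1 (0.995), NIT1 (0.994) and S100A11 (0.993). The libraries of a line share its level, so these values describe mainly the gap between 786-O and the other lines.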

How the data were processed

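RNA-seq of rRNA-depleted, stranded libraries was available for 12 samples, grouped by their labels. The authors mapped the reads to GRCh38 with HISAT2 and deposited raw counts per Ensembl v87 gene, made with HTSeq (intersection-strict). The study calls its replicates biological and left out 2 further A-498 samples for possible mislabelling, which were not analysed here. The deposited DESeq2 tables, which hold the authors' fold changes and p-values, were not used. Symbols (56948 of 58051 genes), positions, lengths and 3′ UTRs came from GENCODE v44. Not every site sequence is reported here.

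Differences were tested in edgeR 4.0.16 (R 4.3.3; quasi-likelihood F-test on the counts, TMM, filterByExpr), in each line by itself, with Benjamini-Hochberg adjustment over all genes tested. The standard error was the log2 fold change over the root of the F statistic. The 786-O pair was described by the log2 ratio of TMM-scaled CPM (prior count 2, at least 10 counts) with an exact Clopper-Pearson interval, which covers counting error only. With no molecular identifiers described, reads are not independent molecules. The script was tested on simulated data. Replicates varied little, with a biological coefficient of variation of 3.83% (A-498) and 5.25% (ACHN).

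Alternatives were DESeq2 1.42.0, other scalings, no filter, a stricter threshold or minimum, a shared spread, a replicate block, other gene lengths and leaving out each library. The members, lists and rules were chosen with earlier results of these data known. From each other list, up to 3 called genes with the largest change and an average log2 CPM of at least 1 were named, with MDM4, PIK3R1 and CDC42 throughout, and genes most like MDM2 and CDKN1A were the 3 with the highest Pearson r.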

Additional observations from a re-analysis of the deposited data

Results flagged for a closer look

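For 6 of the 9 p53 target genes the interaction of line and miR-29 mimic (786-O, A-498) passed the threshold in edgeR with adjustment over all genes tested, with the spread taken from A-498 alone. Of all 22587 genes tested, 13.2% passed as more negative in 786-O and 16.5% as more positive. The log2 difference, 786-O minus A-498, was -1.95 for MDM2, -1.13 for CDKN1A, -2.16 for GDF15, -1.06 for SESN2, -1.11 for FAS and -1.21 for PPM1D. The effects of MDM2 were of opposite sign, at -0.99 in the 786-O pair and 1.01 in A-498. The 6 calls remained with library sizes in place of TMM, with DESeq2, with the spread shared by the 12 libraries and without each A-498 library in turn. In 786-O the members start from lower counts, with 75 counts of GDF15 in the control, and that line has 1 library in each group, so its spread was not measured and a difference between the lines is not established by this test.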

How the results depend on the processing

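No result changed direction with an opposite call under any alternative run. In A-498 the count of members higher was 8 or 9 under all 10 alternatives, in ACHN it was 6 to 8 under all 13, and in the interaction it was 6 to 8 more negative under all 7. In the main fits, 25.5% of all genes were higher in A-498, 17.3% higher in ACHN and 13.2% more negative in the interaction. The counts over all genes moved as well, with 2238 to 3523 higher in ACHN under the 13 alternatives. With an adjusted p under 0.01, 4 members in place of 7 were higher in ACHN than in A-498 controls, 1 of the other p53 targets in place of 3 and 1640 genes in place of 2578 were lower with the inhibitor in ACHN. The spread shared by the 12 libraries also left 1 other p53 target lower in ACHN. Leaving out 1 library gave 1 to 3 such genes in ACHN, 3 to 7 members higher at baseline, and 2409 to 4252 genes more positive in 786-O in the interaction (3723 with all libraries). The lowest values came without ACHN control replicate 1, A-498 control replicate 1 and A-498 mimic replicate 1. DESeq2 called 2153 genes more positive and 1955 more negative in the interaction (3723 and 2972 in edgeR); the cause was not tested. With at least 50 counts in the 786-O pair, 1791 genes were higher and 2477 lower past 1.5-fold, of fewer genes measured (3191 and 3873 at 10 counts). In that pair 2 to 4 members were lower past 1.5-fold, since CDKN1A and GDF15 lie close to it.

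Library sizes in place of TMM moved the split of calls over all genes in A-498 from 5015 higher and 5313 lower to 6191 and 4352, with a shift of the median of 0.08, and in the interaction from 3723 and 2972 to 2796 and 3931. In single genes, FAS in ACHN was called without a filter on low counts (0.16, adjusted p = 0.00345) and with the shared spread (0.17, adjusted p = 0.0195). Replicate numbers did not pair the ACHN libraries (correlation of deviations 0.17, -0.27 and -0.12), and the fit with a replicate block called FAS (0.15, adjusted p = 0.025) and counted 3125 genes higher and 2638 lower (3102 and 2578 without). In A-498 the groups share 1 replicate number, so no block was fitted. At baseline, SESN1 was not called by DESeq2 (adjusted p = 0.0598). The length of the canonical transcript was chosen as an alternative after seeing the data. The 2 A-498 libraries per group and the 1 of 786-O limit what these values can show.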
